A study of Mus musculus with 18 samples.

Results

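The arrays described here ask which transcripts differ between 24 and 12 h of culture when mouse ovarian follicles are kept in anti-Müllerian hormone (AMH) at 200 ng/mL. They are 6 of the 18 arrays of the study, chosen by their titles: 3 arrays of follicles cultured for 24 h with AMH 200 ng/mL and 3 of follicles cultured for 12 h with the same dose. Preantral to small antral follicles were taken from female mice of 6 to 8 weeks, of the strain given as C57BL/6Ntac with the samples and as C57BL/6Tac in the design text. Follicles of 7 mice were pooled for each experiment and divided over drops with 0, 50 or 200 ng/mL of recombinant AMH. All cultures, vehicle included, also received follicle-stimulating hormone (FSH, 80 IU/L) and luteinising hormone (LH, 10 IU/L). Each pool was cultured for 12 h or for 24 h, so the 3 arrays of 24 h and the 3 of 12 h came from 6 different pools, and the submitters describe the samples as comparable only inside 1 experiment. Time and pool can therefore not be told apart for a single array, and the test below rests on the spread between pools. No uncultured follicles were measured in these groups, and the 12 h AMH arrays, called 12 h in title and source and 24 h in their description, were taken as 12 h.

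AMH is a hormone of the transforming growth factor beta family made by granulosa cells, the somatic cells that surround the oocyte. It binds AMHR2, which pairs with type I receptors of the bone morphogenetic protein (BMP) family and phosphorylates SMAD1, SMAD5 and SMAD9, and it is known in the ovary for restraining the recruitment of primordial follicles and the response of growing follicles to FSH. FSH and LH act on follicles through cyclic AMP: FSH drives granulosa cell growth and estradiol synthesis, and LH evokes a short wave of epidermal growth factor-like ligands, prostaglandin synthesis and matrix genes.

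The arrays hold MAS5 signals, a brightness per probe set on a linear scale. On every array the trimmed mean signal was 150, and median signals were 26.3 to 36.5 on 5 arrays and 18.0 on the third 12 h array. Signals near or below these medians have no reliable order, and since 16 was added before taking log2, the log2 changes understate those of genes with low signals. The third 12 h array (12 h replicate 3) stood apart. Over all probe sets, it correlated with the remaining 17 arrays at a median Pearson r of 0.92, while the other 5 reached 0.964 to 0.98, and its poly-A spike controls averaged 5494 against 451 to 1547. Many counts and calls that changed clearly when it was left out are also given without it, but not all. Precision is limited by the number of arrays.

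The markers of the cell types that a follicle preparation can hold also set this array apart. The summed signal of the granulosa cell markers was 1449 there, against 4840 at most on the other 12 h arrays and 7074 to 8001 at 24 h. The 8 ovarian surface epithelium markers summed to 7783 on 12 h replicate 3, whereas the 24 h arrays lay between 1602 and 2026 and the lowest 12 h array was at 1098. The oocyte markers summed to 1059 on the same array and reached 8866 on another 12 h array, and the 24 h arrays ranged from 1448 to 6168. The vehicle array of the same pool was also low in oocyte genes. There Zp3 was at 41.9 against 846 and 1786 on the other 12 h vehicle arrays, and Gdf9 at 33.1 against 527 and 771. The granulosa gene Hsd17b1 was at 118 against 437 and 495. The surface epithelium gene Lgr5 was not high there, at 63.6 against 52.3 and 171. Theca and interstitial markers overlapped between the times (1730 to 1924 at 24 h and 1588 to 2016 at 12 h), and so did endothelial markers (891 to 1590 and 1187 to 1769). Leukocyte markers were at 342 to 1040 at 24 h and 1074 to 2098 at 12 h. Csf1r was the only one of them without overlap, at 45.1 to 145 at 24 h and 428 to 1144 at 12 h. Tyrobp, Cd53, C1qb and Lyz2 overlapped between the times. Among defining markers, Ptprc of all leukocytes was at 10.0 or less, Adgre1 of macrophages at 8.59 or less and the theca enzyme gene Cyp17a1 at 42.6 or less on all 6 arrays. In bulk RNA, fewer cells of a type and less RNA per cell cannot be told apart, and the part of cell composition in the results below was not tested.

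**Figure D1:**
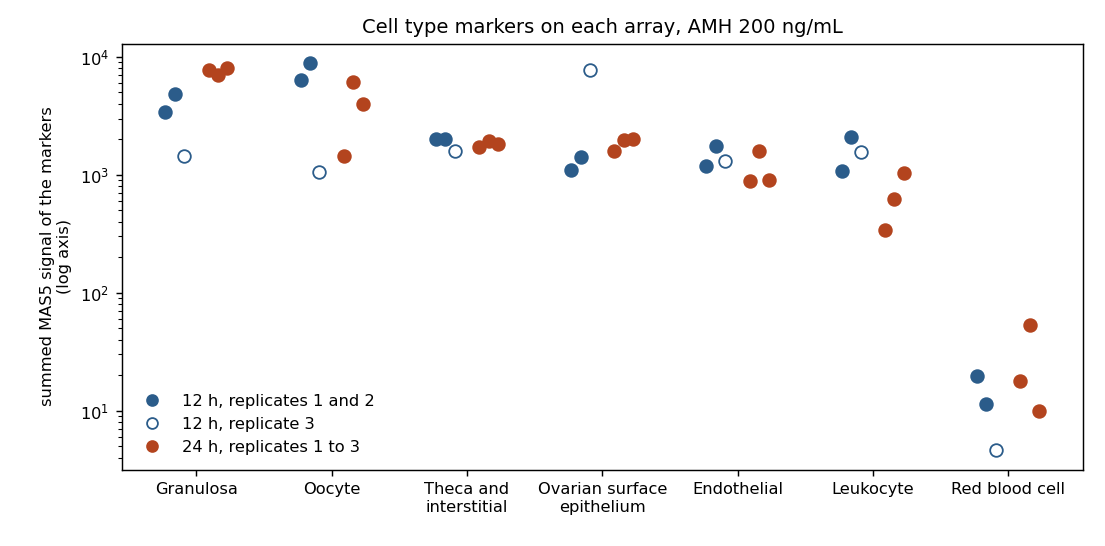
Summed MAS5 signal (vertical log axis) of the markers of 7 cell types on each of the 6 arrays with AMH 200 ng/mL; each point is 1 array, blue for 12 h (open for replicate 3) and orange for 24 h. The open point has the lowest granulosa sum (1449) and the highest ovarian surface epithelium sum (7783).

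Of 11185 genes tested, 308 (2.75%) rose and 169 (1.51%) fell from 12 to 24 h (limma, Benjamini-Hochberg adjusted p under 0.05 over 22519 probe sets, 1 probe set per gene), and 279 of the rises and 136 of the falls exceeded 1 on the log2 scale. In probe sets, 575 (2.55%) were higher and 278 (1.23%) lower. Whether called or not, 6068 of the 11185 genes were higher at 24 h and 5117 lower. Before adjustment, 5670 of the 22519 probe sets had a p under 0.05 (limma), and 7036 without 12 h replicate 3. The list counts below are to be read beside these numbers, and those without 12 h replicate 3 beside the gene shares given next. Without 12 h replicate 3, 2984 probe sets passed, 1750 higher (7.77%) and 1234 lower (5.48%), and the genes called numbered 925 higher (8.27%) and 735 lower (6.57%), with all 477 of the first set among them. Without the first or the third 24 h array 0 probe sets passed (limma), with 3150 and 3505 below 0.05 before adjustment, and 7 passed once the second 24 h array was left out. Without the first 12 h array 127 passed, and without the second 1391. All 477 genes kept their direction in each of these fits. In all 477 the 24 h and 12 h signals did not overlap, as was also so for 2272 genes higher (20.3%) and 1734 lower (15.5%) among all genes tested.

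The largest rises were of genes with low 12 h signals, many of them near the array median. Dpysl4, of the collapsin response mediator family that acts on the cytoskeleton, had signals of 735, 668 and 830 on the 24 h arrays and 31.1, 39.2 and 14.4 on the 12 h arrays. The groups were far apart, and the log2 change was 4.14 (SE 0.28, n = 3 and 3, limma adjusted p = 0.00352), with all 3 of its probe sets called. Prrt4, a proline-rich transmembrane protein gene, stood at 511, 382 and 419 at 24 h against 5.56, 18.4 and 4.42 at 12 h, a change of 4.18 (SE 0.31, adjusted p = 0.00381), with 1 of its 2 probe sets called. Its 12 h signals lie at or below the array medians, so these 3 values have no order.

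Plxnc1, a receptor for semaphorins, had 24 h signals of 1136, 1034 and 1049 and 12 h signals of 136, 125 and 19.3. The 24 h arrays lay close together and 12 h replicate 3 was the lowest. The change was 3.58 (SE 0.51, adjusted p = 0.0154), and 2.89 without that array. All 5 of its probe sets were called. Tnni3, the cardiac form of the troponin inhibitory subunit, went from 267, 312 and 49.6 at 12 h to 1496, 2022 and 1454 at 24 h. It rose by 3.18 (SE 0.55), and by 2.44 without 12 h replicate 3. A second gene of heart muscle filaments, the myosin-binding protein C gene Mybpc3, rose by 3.09 (SE 0.41) from signals of 0.697 to 11.2 at 12 h to 92.3 to 287 at 24 h. Cnmd, the gene of the matrix glycoprotein chondromodulin, rose by 3.31 (SE 0.63) from 147, 167 and 12.2 to 1003, 830 and 934, and by 2.44 without the third 12 h array.

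Plin5, which coats lipid droplets, had signals of 404, 141 and 452 at 24 h and 11.8, 35.2 and 2.19 at 12 h, and rose by 3.41 (SE 0.52, adjusted p = 0.0193). Cemip, a protein that binds and breaks down hyaluronan, went from 10.9, 19.3 and 12.2 to 315, 324 and 211. It rose by 3.30 (SE 0.29, adjusted p = 0.0126), with little influence of the third 12 h array (3.26 without it). The membrane metallopeptidase gene Mmel1 (3.14), the mitochondrial glutamate carrier gene Slc25a18 (3.06), the gene Derl3 of the degradation pathway of the endoplasmic reticulum (2.90) and Gsg1l, an auxiliary subunit of glutamate receptors (3.60), were also among the 15 largest rises. The others were N4bp2l1 (3.86), Cmtm1 (3.07) and Ypel1 (2.90). Without 12 h replicate 3, Derl3 was at 2.16, N4bp2l1 at 3.38 and Cmtm1 at 2.63.

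**Figure D2:**
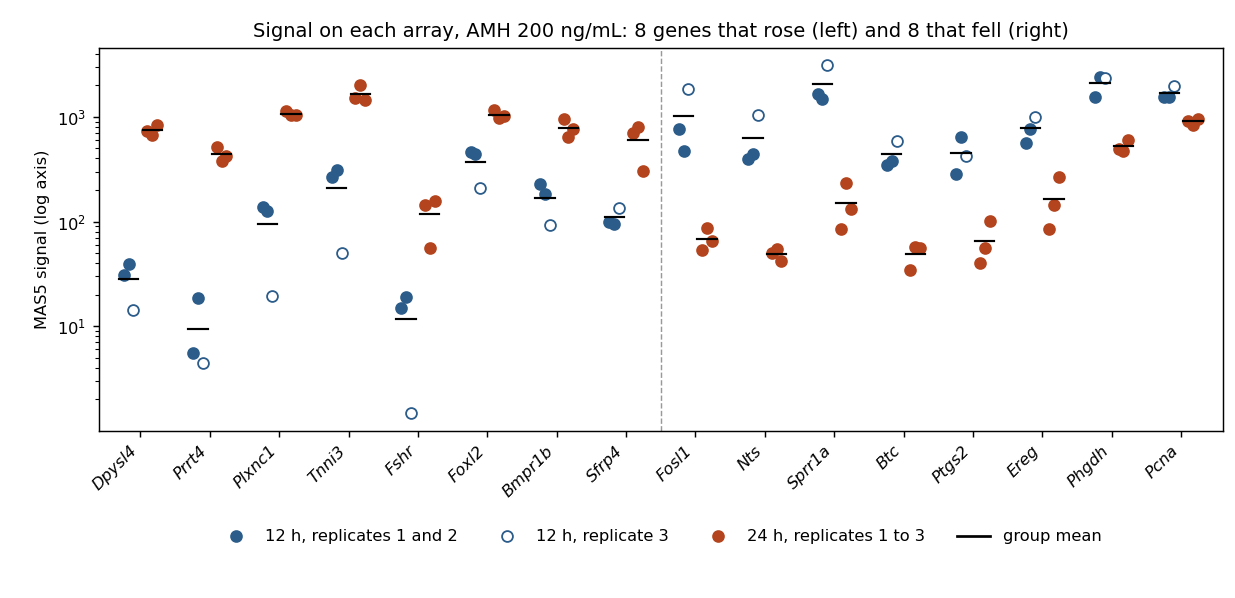
MAS5 signal (vertical log axis) of 16 genes on each of the 6 arrays with AMH 200 ng/mL, 8 that rose on the left and 8 that fell on the right; points are arrays (blue 12 h, open for 12 h replicate 3, orange 24 h) and black lines group means. No gene shown has overlapping groups; Dpysl4 reached 668 to 830 at 24 h, and Nts lay at 41.5 to 54.1 at 24 h against 399 to 1035 at 12 h.

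Most of the largest falls were of genes well above the array median at 12 h; Npy, described below, was close to it on 1 array. Sprr1a, a small proline-rich protein of cornified envelopes that is also induced in injured cells, had signals of 1638, 1473 and 3108 at 12 h and 85.1, 234 and 132 at 24 h. It fell by 3.67 (SE 0.38, adjusted p = 0.0131). Fosl1, which encodes the AP-1 subunit FRA-1, had 764, 473 and 1850 at 12 h and 53.8, 86.3 and 65.6 at 24 h. The third 12 h array was the highest, and the gene fell by 3.42 (SE 0.45, adjusted p = 0.0134), and without that array it fell by 2.89. Nts, the neurotensin gene, was at 399, 439 and 1035 at 12 h and at 49.6, 54.1 and 41.5 at 24 h, and it fell by 3.18 (SE 0.37, adjusted p = 0.0134).

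Ramp3, a partner protein of the adrenomedullin receptor, fell by 3.14 (SE 0.35) from 254, 402 and 534 to 17.5, 40.6 and 31.8. Its 24 h signals were near the array median. The tight junction gene Cldn2 went below it, from 201, 109 and 125 to 1.33, 8.39 and 5.51 (it fell by 2.91, SE 0.31). Plaur, the receptor of urokinase plasminogen activator, fell by 2.62 (SE 0.39) from 768, 471 and 1438 to 116, 163 and 86.1. The neuropeptide gene Nmu (neuromedin U) fell by 2.61 (SE 0.31) from 136, 88.9 and 178 to 6.14, 9.94 and 7.73. Tnfrsf23, a decoy receptor for a death ligand, differed by -2.85, the serpin gene Serpinb9b by -2.67 and the semaphorin gene Sema3e by -2.61, all with an adjusted p under 0.05. Sema3e was called in 4 of its 4 probe sets.

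Of the 15 largest falls, 13 matched a promoter in RefSeq (build GRCm38.p6, 250 bases before to 50 after the start), and 5 of these held the AP-1 motif TGANTCA, a palindrome searched on both strands. Among the 15 largest rises it was 1 of 13. Over all genes that fell, 17 of 130 with a promoter held it in at least 1 start (13.1%), over all that rose 15 of 251 (5.98%), over all genes tested 6.05% of 9098, and over all 32851 promoter windows 7.81%. Promoters of 5 genes that fell are shown because they hold the motif and come from different groups of the falls: 2 neuropeptide genes, an envelope protein gene, a protease receptor gene and Tnfaip6, a hyaluronan-binding protein gene of the LH-induced list. Each is given from 5′ to 3′ on the gene's strand. Capitals mark the motif, and a match describes these letters only.
Sprr1a promoter, chr3:92485832-92486131, minus strand: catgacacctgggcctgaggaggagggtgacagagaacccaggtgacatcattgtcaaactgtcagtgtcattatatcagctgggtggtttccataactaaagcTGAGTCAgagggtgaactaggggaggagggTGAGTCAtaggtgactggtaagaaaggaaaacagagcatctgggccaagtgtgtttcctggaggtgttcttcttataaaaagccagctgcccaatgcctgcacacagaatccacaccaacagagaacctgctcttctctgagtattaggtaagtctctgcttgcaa
Nts promoter, chr10:102490369-102490668, minus strand: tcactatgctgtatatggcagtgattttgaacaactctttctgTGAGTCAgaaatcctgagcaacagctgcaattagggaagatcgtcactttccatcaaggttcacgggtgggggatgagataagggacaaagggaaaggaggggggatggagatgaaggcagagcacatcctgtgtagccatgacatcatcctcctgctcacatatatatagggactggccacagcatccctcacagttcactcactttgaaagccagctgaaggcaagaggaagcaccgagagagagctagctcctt
Plaur promoter, chr7:24462233-24462532, plus strand: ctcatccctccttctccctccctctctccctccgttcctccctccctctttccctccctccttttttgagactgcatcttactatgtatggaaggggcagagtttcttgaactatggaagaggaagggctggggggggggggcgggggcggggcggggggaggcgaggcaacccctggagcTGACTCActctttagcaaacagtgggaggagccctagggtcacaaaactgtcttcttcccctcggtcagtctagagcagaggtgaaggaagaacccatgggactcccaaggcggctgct
Nmu promoter, chr5:76363728-76364027, minus strand: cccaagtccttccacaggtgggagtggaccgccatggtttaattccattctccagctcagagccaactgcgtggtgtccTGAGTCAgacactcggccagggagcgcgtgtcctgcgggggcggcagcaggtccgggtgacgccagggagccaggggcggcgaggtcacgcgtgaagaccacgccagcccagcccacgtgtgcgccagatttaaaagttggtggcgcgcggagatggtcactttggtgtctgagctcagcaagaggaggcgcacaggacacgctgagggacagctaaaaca
Tnfaip6 promoter, chr2:52037863-52038162, plus strand: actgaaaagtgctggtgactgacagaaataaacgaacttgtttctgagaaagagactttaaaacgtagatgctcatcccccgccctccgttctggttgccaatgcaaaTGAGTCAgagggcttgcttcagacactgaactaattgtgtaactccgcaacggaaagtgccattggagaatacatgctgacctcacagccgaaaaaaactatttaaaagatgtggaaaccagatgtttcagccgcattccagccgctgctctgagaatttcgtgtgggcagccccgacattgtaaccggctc
The first bases of the matches lie at -146 and -116 from the start in Sprr1a, -207 in Nts, -69 in Plaur, -171 in Nmu and -142 in Tnfaip6. The cyclic AMP element TGACGTCA was held by 3.08% of the genes that fell and 2.39% of those that rose, against 3.55% of the genes tested, and the NR5A element CAAGGTCA by 0 of 130 and by 2.39%, against 1.31%. The search also covered a GC-rich SMAD1/5 motif and the CArG box. The SMAD1/5 motif was held by 18.5% of the genes that fell and 23.9% of those that rose, against 25.3%. For the CArG box these shares were 0.769% and 0.797%, against 1.56%.

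The AP-1 and early growth response genes, which cells transcribe within minutes of a stimulus, were mostly lower at 24 h. Of 23 immediate early genes tested 20 were lower, 7 fell and 0 rose, with a median log2 change of -0.88, where all 11185 genes had a median of 0.06. Egr3 had signals of 254, 260 and 284 at 12 h and 32.1, 45.4 and 44.7 at 24 h, with both groups narrow. It fell by 2.32 (SE 0.25, adjusted p = 0.0131). Fos fell by 1.74 (SE 0.34) from 214, 453 and 539 to 93.5, 116 and 95.3. Klf4, a transcription factor of the same early wave, fell by 1.81 (SE 0.27) from 778, 558 and 1082 to 206, 172 and 263. Fosl1, described above, was also among the 7. The other 3 that fell, named after their values were seen, were Fosb, Nr4a1 and Ier3, with changes of -1.81, -1.35 and -0.88. Nr4a1 is also a member of the LH-induced list below. Without 12 h replicate 3, 10 fell and 1 rose.

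Genes that LH is known to induce in granulosa and cumulus cells were mostly lower at 24 h: 17 of 21 were lower, 7 fell, 1 rose and the median was -1.22. The ligands come first. Btc (betacellulin), an epidermal growth factor-like ligand, had signals of 346, 376 and 589 at 12 h and 34.1, 57.0 and 55.4 at 24 h. It fell by 2.79 (SE 0.30, adjusted p = 0.0131). Ereg (epiregulin), a ligand of the same family, fell by 2.22 (SE 0.37, adjusted p = 0.025) from 567, 765 and 997 to 85.6, 144 and 265.

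Ptgs2, the inducible prostaglandin synthase gene, fell by 2.50 (SE 0.37, adjusted p = 0.0185). It went from 287, 638 and 421 at 12 h to 39.9, 56.5 and 101 at 24 h, without overlap. Tnfaip6, which cross-links hyaluronan in the cumulus matrix, fell by 2.00 (SE 0.29) from 118, 165 and 211 to 25.4, 29.8 and 29.8, signals near the array median. The hyaluronan synthase gene Has2 did not pass: it had 25.1, 97.4 and 92.2 at 12 h and 23.8, 29.9 and 22.2 at 24 h (-0.95, SE 0.41, adjusted p = 0.198). Sult1e1, which inactivates estrogens by sulfation, fell by 2.72 (SE 0.38) from 269, 194 and 352 to 35.8, 10.3 and 40.5. The member that rose was Sfrp4, a secreted Wnt-binding protein known from luteal granulosa cells, with 99.1, 94.2 and 135 at 12 h and 706, 802 and 302 at 24 h (2.20, SE 0.36, adjusted p = 0.0238). The neuropeptide gene Adcyap1 (PACAP), expressed by granulosa cells around ovulation, had 62.0, 105 and 211 at 12 h and 61.4, 16.99 and 22.9 at 24 h and did not pass (-1.48, SE 0.47, adjusted p = 0.112). Without the third 12 h array 10 of the list fell and 2 rose, with a median of -0.99.

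Of 18 granulosa cell genes tested, 17 were higher at 24 h, 3 rose and 0 fell (median 1.28). Fshr, the FSH receptor gene, had signals of 144, 55.8 and 156 at 24 h and 14.8, 19.2 and 1.48 at 12 h, where it lay below or near the array median. It rose by 2.24 (SE 0.43, adjusted p = 0.0332). Foxl2, the transcription factor that keeps granulosa cell identity, rose by 1.53 (SE 0.29, adjusted p = 0.0319) from 463, 443 and 209 to 1150, 972 and 1029. Esr2, the estrogen receptor of granulosa cells, rose by 1.98 (SE 0.39) from 45.4, 40.1 and 11.5 to 199, 194 and 113.

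In several other members of this list 12 h replicate 3 was at an end of its group, among them the following. Hsd17b1, which converts estrone to estradiol, had 1564, 1319 and 1468 at 24 h and 230, 573 and 43.4 at 12 h (2.84, SE 0.69, adjusted p = 0.0594). Inhbb, the inhibin beta B subunit gene, had 1388, 1345 and 985 against 108, 646 and 34.8 (2.95, SE 0.78, adjusted p = 0.0727). In both the groups do not overlap and the lowest value is that of 12 h replicate 3. Without that array their changes were 1.94 and 2.12, with adjusted p of 0.0066 and 0.0373. Inhba, the beta A subunit gene, had 1477, 939 and 1667 at 24 h and 165, 258 and 749 at 12 h (1.99, SE 0.48, adjusted p = 0.0598, and 2.59 with adjusted p = 0.00177 without that array), and here 12 h replicate 3 was the highest of its group. The inhibin alpha gene Inha had 2014, 1923 and 2237 against 1033, 1724 and 506 (1.07, SE 0.38, adjusted p = 0.135, and 0.62 with adjusted p = 0.0685 without that array). Without the third 12 h array 11 of 18 granulosa genes rose, with a median of 0.90. That array also had the lowest granulosa marker sum, as given above.

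Of 17 genes that FSH induces 9 were higher, near the share over all genes tested (6068 of 11185). Of the 17, 3 rose and 0 fell, with a median of 0.51, and without 12 h replicate 3, 6 rose and 1 fell. The 3 were Greb1, a coregulator of steroid receptors (1.63, SE 0.35, all 4 probe sets called), Prkar2b, the regulatory subunit of protein kinase A that FSH raises in granulosa cells (1.46, SE 0.32), and Igf1r, the receptor of insulin-like growth factor 1 (1.42, SE 0.22). Igf1r had signals of 1200, 749 and 940 at 24 h and 401, 327 and 307 at 12 h. In the steroid synthesis list 7 of 11 were higher, 0 rose and 1 fell (Sult1e1). Without 12 h replicate 3, 3 rose and 2 fell. Cyp11a1, which starts steroid synthesis from cholesterol, had 2400, 1856 and 2478 at 24 h against 837, 1397 and 1893 at 12 h and did not pass (0.76, SE 0.29, adjusted p = 0.153), but it did without that array (1.03, adjusted p = 0.0172). Hsd3b1, of the same route, did not pass (0.51, SE 0.24, adjusted p = 0.225). Star, the carrier of cholesterol into mitochondria, had overlapping groups with 1476, 1127 and 1379 at 24 h and 1035, 2065 and 1380 at 12 h (-0.12, SE 0.25, adjusted p = 0.80). Of 20 cholesterol synthesis genes 1 rose, the sterol reductase gene Tm7sf2 (1.62, SE 0.27).

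Among the receptors of AMH and BMP signalling, 2 BMP receptor genes passed. Bmpr1b, a BMP type I receptor of granulosa cells and oocytes, had 953, 643 and 770 at 24 h and 231, 184 and 92.0 at 12 h. It rose by 2.18 (SE 0.32, adjusted p = 0.0172) with all 3 probe sets called. Bmpr2, a BMP type II receptor, rose by 1.31 (SE 0.17, adjusted p = 0.0134) from 742, 610 and 684 to 1873, 1461 and 1782, and both its probe sets were called. Amhr2 had 1298, 1606 and 1473 at 24 h and 725, 1451 and 446 at 12 h, overlapping groups, and did not pass on this probe set (0.89, SE 0.37, adjusted p = 0.183, and 0.49 without 12 h replicate 3). All 3 of its probe sets were higher at 24 h, and 1 of them, less bright than the one shown, was called. The other 11 of the 14 components tested did not pass either. Among them were the receptor genes Bmpr1a (0.34, SE 0.16) and Acvr1 (-0.55, SE 0.25). The list median was 0.10, which turned below 0 with each array centred on its median. The AMH gene itself lay below the filter on dim probe sets and was not tested: its signals were 3.44, 21.0 and 5.81 at 24 h and 76.6, 111 and 1.54 at 12 h.

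Targets of SMAD1, SMAD5 and SMAD9 passed in 0 of 13 members (limma, 3 with an unadjusted p under 0.05, median -0.30), and 11 were lower. Without 12 h replicate 3, 1 rose and 2 fell. Id1, an inhibitor of helix-loop-helix factors and a direct target, had 398, 366 and 386 at 24 h and 410, 345 and 638 at 12 h (-0.22, SE 0.24). Id2 had 874, 489 and 743 against 338, 407 and 251, with no overlap, and an adjusted p of 0.07 (1.03, SE 0.27). It passed without 12 h replicate 3 (0.85, adjusted p = 0.0473). Id3 stood at -0.04 (SE 0.18) with signals of 1187 to 1420 at 24 h and 1138 to 1553 at 12 h. The inhibitory SMAD genes Smad6 and Smad7 stood at -0.43 (SE 0.44) and -0.30 (SE 0.19).

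**Figure D3:**
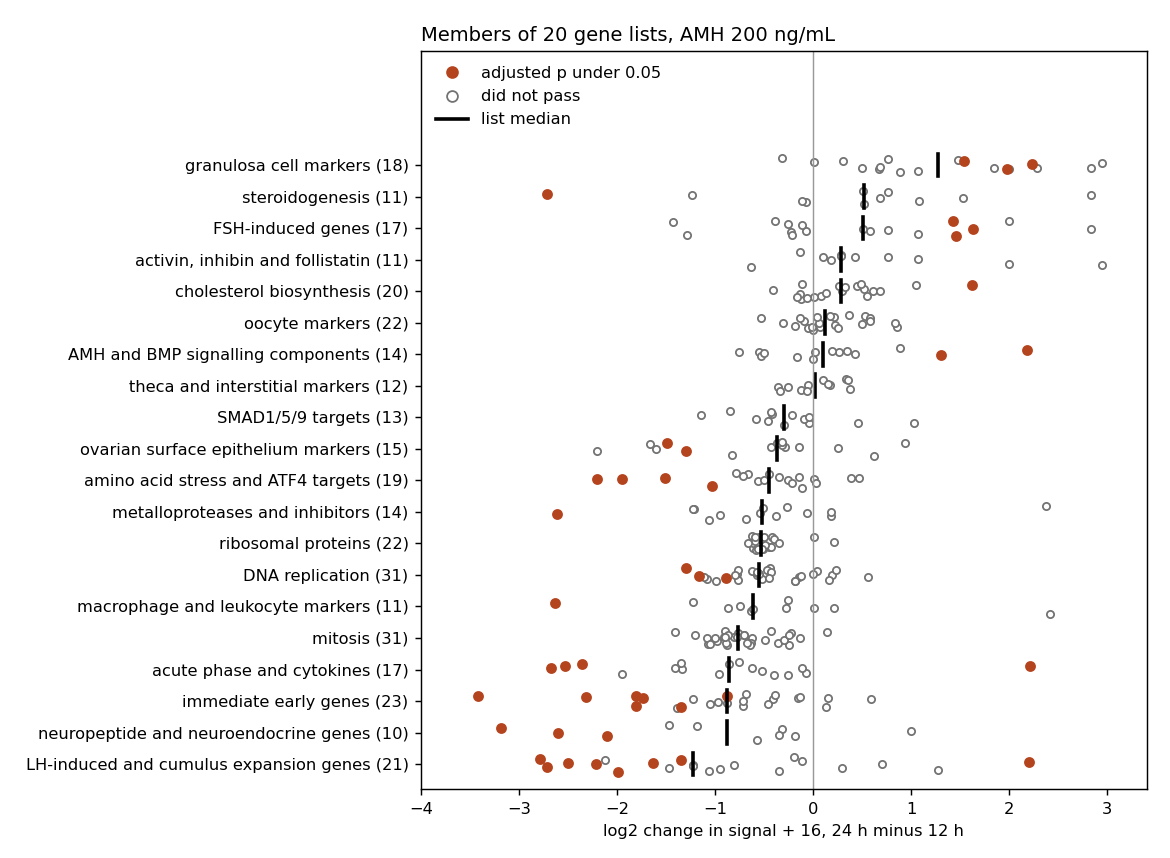
Log2 change from 12 to 24 h under AMH 200 ng/mL (horizontal axis) for the tested members of 20 gene lists, with the number tested in brackets; filled points passed an adjusted p under 0.05, open points did not, and black bars are list medians. The granulosa median is 1.28 and the LH-induced median -1.22; among the 31 mitosis genes 30 lie left of 0 and none is filled.

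Genes of the cell cycle were mostly lower at 24 h. Of 31 DNA replication genes 26 were lower and 3 fell (median -0.55): the licensing factor gene Cdt1 by 1.30 (SE 0.18, adjusted p = 0.0141), the primase gene Prim1 by 1.16 (SE 0.26) and Pcna, the sliding clamp of DNA polymerases, by 0.89 (SE 0.17). Cdt1 had 812, 748 and 677 at 12 h and 263, 331 and 289 at 24 h, and Pcna 1540, 1561 and 1985 against 907, 843 and 959. In replication genes 13 fell without 12 h replicate 3 (median -0.77). Of 31 mitosis genes 30 were lower and 0 passed with all 6 arrays (limma, 7 with an unadjusted p under 0.05, median -0.76), whereas 27 fell without 12 h replicate 3 (median -1.31). Mki67, a marker of cycling cells, had 789, 799 and 291 at 12 h and 197, 354 and 192 at 24 h, and its change was -1.21 (SE 0.41, adjusted p = 0.125) with all arrays and -1.67 (adjusted p = 0.00618) without that one. Cdk1, the kinase that starts mitosis, had 397, 365 and 530 against 177, 263 and 153 (-1.08, SE 0.26, adjusted p = 0.0575, and -0.92 with adjusted p = 0.0358 without that array). Of the cell cycle inhibitors, Cdkn1b (p27) rose by 1.01 (SE 0.16, adjusted p = 0.0203) from 1004, 957 and 867 to 2083, 1702 and 1980. Cdkn2b (p15) fell by 1.37 (SE 0.30, adjusted p = 0.047), and Cdkn1a (p21) had 1451, 1358 and 2733 at 12 h against 747, 857 and 828 at 24 h without passing (-1.10, SE 0.26, adjusted p = 0.0586, and -0.78 with adjusted p = 0.00867 without 12 h replicate 3).

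Amino acid genes fell in part. Of 19 targets of ATF4, the factor of the amino acid stress response, 15 were lower and 4 fell (median -0.45). Phgdh, the first enzyme of serine synthesis, had 1548, 2414 and 2335 at 12 h and 493, 475 and 602 at 24 h. It fell by 1.95 (SE 0.21, adjusted p = 0.0131). Psat1, the next enzyme of that pathway, fell by 1.51 (SE 0.20) from 1715, 1665 and 1818 to 519, 516 and 795, the asparagine synthetase gene Asns by 1.04 (SE 0.20) and the cystine transporter gene Slc7a11 by 2.21 (SE 0.31).

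Among 17 acute phase and cytokine genes 16 were lower and 3 fell, with a median of -0.86. Ccl2, the chemokine that attracts monocytes, had 969, 777 and 1940 at 12 h and 106, 209 and 397 at 24 h, and fell by 2.36 (SE 0.47, adjusted p = 0.0363). Il1rn, the natural antagonist of interleukin 1, fell by 2.67 (SE 0.33) from 229, 216 and 410 to 23.7, 41.2 and 24.7, and Il11 by 2.53 (SE 0.38). The haptoglobin gene Hp went the other way, from 15.0, 22.1 and 1.61 to 116, 80.7 and 145 (2.21, SE 0.37). Of 10 neuropeptide genes 9 were lower and 3 fell: Nts, Npy (neuropeptide Y), by 2.61 (SE 0.58) from 145, 37.1 and 282 to 4.79, 13.5 and 2.47, and Crhbp, which binds corticotropin-releasing hormone, by 2.11 (SE 0.27). All 24 h signals of Npy and Crhbp were below the array median. In the metalloprotease list 1 of 14 fell, Plaur, and the matrix protease gene Mmp11 had 2033, 2209 and 1987 at 24 h against 509, 839 and 131 at 12 h without passing (2.37, SE 0.54, adjusted p = 0.0524). With 12 h replicate 3 left out, 5 of the list fell and 1 rose, and Mmp11 was at 1.64 (adjusted p = 0.00243).

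Single members of further lists passed. Of 12 Notch pathway genes the target Hey2 rose by 2.10 (SE 0.34) from 25.2, 59.2 and 20.6 to 221, 185 and 171, and the ligand gene Jag1 fell by 1.38 (SE 0.28) from 500, 402 and 573 to 130, 266 and 161. Of 18 genes of p53 and apoptosis, Gadd45a, a growth arrest gene, rose by 1.46 (SE 0.27) and Bmf, a proapoptotic BH3 protein, by 1.5 (SE 0.32). Of the 3 probe sets of Bmf, 2 were higher at 24 h and 1 was called. Of 21 lipid droplet and fatty acid genes Plin5 rose, while Fabp4, a fatty acid carrier, fell by 2.33 (SE 0.33) from 323, 426 and 642 to 107, 49.5 and 80.3 and Plin2, the common droplet coat protein, by 0.82 (SE 0.17). One gene each passed among the interferon response genes (Bst2, 1.42), the hypoxia and glycolysis genes (Pfkl, 1.08) and the chaperones (Cryab, -1.18). Leaving out 12 h replicate 3, 1 Notch gene rose and 2 fell, 2 p53 and apoptosis genes rose and 5 fell, 3 interferon genes rose, and 2 chaperones rose and 4 fell. Of 26 extracellular matrix genes, 28 of oxidative phosphorylation, 22 ribosomal protein genes and 16 targets of YAP and TEAD, 0 passed (limma), while 7, 3, 13 and 7 had an unadjusted p under 0.05. In the same order 18, 23, 20 and 12 were lower at 24 h, with medians of -0.12, -0.22, -0.54 and -0.61. Without 12 h replicate 3 the numbers that passed were 2, 1, 4 and 3, and the medians were -0.067, -0.077, -0.28 and -0.63. In that same fit 8.27% of all genes tested rose and 6.57% fell. No list was tested against these shares, and counts of 1 or 2 members do not set a list apart.

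Genes of other cell types belong beside these values. Of 15 ovarian surface epithelium genes 12 were lower and 2 fell, the keratins Krt18, by 1.5 (SE 0.28) from 2544, 1970 and 4488 to 889, 1023 and 1072, and Krt8, by 1.30 (SE 0.22). The list median was -0.37 with all arrays and 0.14 without 12 h replicate 3, where 2 rose and 3 fell. Of 11 macrophage and leukocyte genes 1 fell, Csf1r, the receptor of the macrophage growth factor, by 2.64 (SE 0.45) from 605, 1144 and 428 to 45.1, 118 and 145, and 1 of its 3 probe sets was called. In this list 2 fell and 1 rose without 12 h replicate 3. The lymphocyte antigen gene Cd52 had 162, 412 and 195 at 24 h against 11.6, 95.5 and 18.7 at 12 h (2.41, SE 0.56, adjusted p = 0.0549, and 2.19 with adjusted p = 0.0347 without 12 h replicate 3). Of 22 oocyte genes 0 passed (limma), with or without the third 12 h array. With all arrays 0 had an unadjusted p under 0.05 and the median was 0.12, and without that array 11 had one and the median was -1.09. Gdf9, an oocyte growth factor, had 149, 621 and 395 at 24 h and 686, 934 and 49.8 at 12 h (-0.01, SE 0.95). The zona pellucida gene Zp3 had 181, 1061 and 654 against 1005, 1697 and 8.22 (0.58, SE 1.44), and the oocyte factor Bmp15 124, 435 and 250 against 526, 657 and 0.442 (0.49, SE 1.26). Theca and endothelial lists had 0 genes called of 12 and 15 (limma), with and without that array. With all arrays 0 and 1 had an unadjusted p under 0.05, and without it 2 and 0.

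To see whether the change with time differed from that without AMH, the difference between AMH 200 ng/mL and vehicle was taken inside each of the 6 pools and the 24 h pools were compared with the 12 h pools. In that test 0 of 22519 probe sets passed (0%, limma, smallest adjusted p = 0.749), 1062 had an unadjusted p under 0.05, and without the pool of 12 h replicate 3 the counts were 0 and 1284. In the 6 vehicle arrays alone 195 probe sets were higher at 24 h (0.866%) and 97 lower (0.431%). Of the 477 genes called under AMH, 476 had the same sign under vehicle. Vehicle list medians were -0.95 for LH-induced, -0.89 for mitosis, -0.65 for immediate early and 0.84 for granulosa genes. They were 0.32 for macrophage and leukocyte genes and 0.48 for surface epithelium genes. The vehicle and AMH cultures share their pools, so these values and those below stand side by side and do not support each other. Dpysl4 changed by 3.09 (SE 0.28) under vehicle and 4.14 under AMH, Prrt4 by 3.42 (SE 0.29) and 4.18, and Plxnc1 by 2.84 (SE 0.37) and 3.58. The estimates under vehicle were -3.57 (SE 0.33) for Nts, -2.34 (SE 0.33) for Sprr1a, -2.17 (SE 0.33) for Btc, -2.02 (SE 0.53) for Ptgs2, 2.43 (SE 0.45) for Fshr and 2.11 (SE 0.66) for Bmpr1b. Under AMH 50 ng/mL, without its 12 h replicate 3, which correlated least with the rest of the series, they were 3.10 (SE 0.24) for Dpysl4, -3.73 (SE 0.31) for Nts, -2.36 (SE 0.26) for Btc and 1.24 (SE 0.24) for Bmpr1b.

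The 5 genes of each sign with the smallest p for the difference from vehicle, none of which passed, are given with both estimates. Fosl1 stood at -1.96 (SE 0.38) under vehicle and -3.42 under AMH (difference -1.45, SE 0.29), Ccl2 at -0.76 (SE 0.50) and -2.36 (difference -1.60), and Rras2, a small GTPase, at -0.50 (SE 0.18) and -1.40 (difference -0.89). Saa3, an acute phase protein, was at 1.82 (SE 0.25) under vehicle and -0.62 (SE 0.41) under AMH (difference -2.44), and Tyrobp, an adaptor of myeloid receptors, at 0.91 (SE 0.23) and -0.62 (SE 0.37, difference -1.53). With positive differences, Wdr7 stood at 0.47 under vehicle and 1.54 under AMH, the glycolytic enzyme gene Aldoc at 0.85 and 1.87, Mlf1 at 1.04 and 2.40, the transcription factor gene Foxp2 at 0.85 and 2.18, and Apoa4 at -0.13 and 0.78. In all 5 genes with positive differences the lowest 12 h value under AMH was that of 12 h replicate 3, at 5.96 in Foxp2 and 4.95 in Mlf1. In all 5 with negative differences the same array held the highest 12 h value under AMH. All 10 had an adjusted p of 0.749 in this test (limma). In the test of time alone, without 12 h replicate 3, Aldoc passed at 1.28 (adjusted p = 0.00908), Foxp2 at 1.08 (adjusted p = 0.0168) and Mlf1 at 1.49 (adjusted p = 0.00445). In that test, without the same array, Apoa4 was at -0.016, Saa3 at -0.31 and Tyrobp at -0.32. Their differences from vehicle without the pool of 12 h replicate 3 were 1.01, -2.01 and -1.40. The list medians of the difference were -0.95 for macrophage and leukocyte genes, -1.21 for surface epithelium genes, 0.24 for granulosa genes and -0.18 for LH-induced genes, beside 0.07 for all genes. Without the pool of 12 h replicate 3 they were -1.08, -0.54, 0.29 and -0.087, beside -0.0025.

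**Figure D4:**
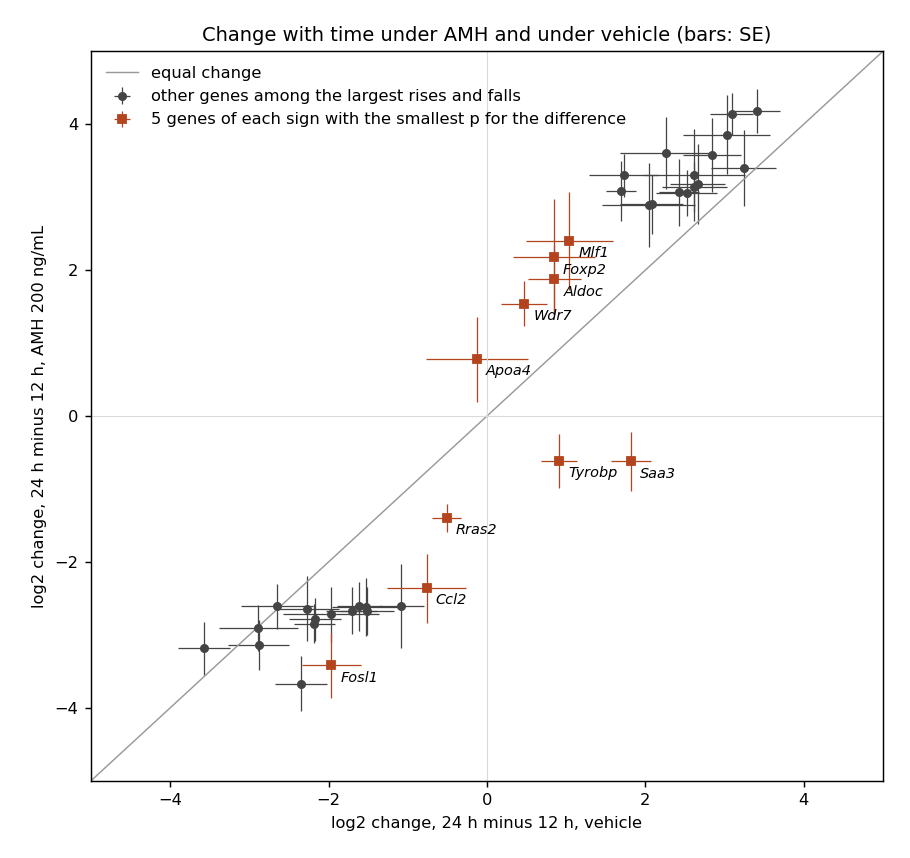
Log2 change from 12 to 24 h under vehicle (horizontal axis) and under AMH 200 ng/mL (vertical axis) for the 15 largest rises, the 15 largest falls and the 5 genes of each sign with the smallest p for the difference (orange squares); bars are SE, n = 3 and 3 arrays per axis, and the grey line marks equal change. Fosl1 lies at -1.96 and -3.42, and Saa3 at 1.82 and -0.62; none of the differences passed the test.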

How the data were processed

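RNA of follicle cultures was amplified from 5 ng and hybridised to Affymetrix mouse arrays, 1 array per culture. The deposited table holds signal intensity per probe set, computed by the authors with MAS5 on a linear scale, per the submitters' processing notes (its version is not given in the sources used here). No further normalization was applied. The array has 45101 probe sets, of which 64 are controls and were set aside, and the 22519 at or above the 50th percentile of mean log2 over the 6 arrays were tested. The annotation gave 1 symbol to 34945 of the 45037 others, several to 932 and none to 9160. A gene was represented by its brightest tested probe set with 1 symbol. The other probe sets of a called gene did not always pass: for instance, 1 of 2 was called in Foxl2 and Cdt1 and 1 of 3 in Jag1.

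Log2(signal + 16) was modelled by lmFit and trended eBayes of limma 3.58.1 (R 4.3.3), setting 3 arrays of 24 h against 3 of 12 h, unpaired, with 4 residual degrees of freedom, two-sided. The Benjamini-Hochberg procedure ran over all 22519, with a threshold of 0.05. The difference from vehicle used the 6 within-pool differences. The method was tested on simulated data. Named genes were the 15 largest rises and 15 largest falls whose groups did not overlap, fixed genes of AMH and follicle biology, the 4 members with the smallest p in each list (fewer where fewer were tested), and 5 genes of each sign for the difference from vehicle; not all are printed. Members and lists were chosen with earlier results of these data known. Lists are described by counts and medians, with no test of a list. Alternatives changed the added value, normalization, filter, trend, array weights, block and arrays. Promoters and motif matches came from RefSeq. Figures were drawn with matplotlib 3.10.9. Some genes are not reported here.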

Additional observations from a re-analysis of the deposited data

How the results depend on the processing

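The direction of the 72 genes named as risen or fallen held in every alternative in which they were tested, but how many passed depended on the settings and above all on the arrays. Against 575 probe sets higher and 278 lower, adding 1 in place of 16 before log2 gave 341 higher (and 212 lower), quantile normalization 884 and 602, no filter 269 and 132, array weights 2446 and 1614, and a spread shared with the vehicle arrays 1956 and 1018. Leaving out 1 array gave 0 to 1750 higher and 0 to 1234 lower. The share of higher among the called fell from 67.4% to 59.5% under quantile normalization, 60.5% with each array centred on its median and 60.2% with array weights. Centring moved the median change of all probe sets from 0.09 to -0.07, and under it or quantile normalization the list medians of BMP components, insulin-like growth factors, hypoxia and glycolysis, oocyte, theca and oxidative phosphorylation genes changed sign. The replicate block gave 507 higher and 241 lower (748 in all). Deviations of same-numbered arrays correlated at 0.109, 0.119 and -0.00382, so the numbers were not taken as pairs. The difference from vehicle had 0 probe sets called in all 14 fits, with a smallest adjusted p of 0.0621 under centring.

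Of the genes named in the text that did not pass, 7 changed sign in at least 1 alternative, and the cause was not tested. Leaving out 1 array in turn gave -0.016 to 1.25 for Apoa4, -1.24 to 1.44 for Bmp15, -1.22 to 0.71 for Gdf9, -1.34 to 1.73 for Zp3, -0.40 to 0.023 for Id1, -0.18 to 0.044 for Id3 and -0.35 to 0.14 for Star. With array weights Bmp15 was at -1.02, Zp3 at -1.03, Id3 at 0.084 and Star at 0.082. Quantile normalization gave 0.19 for Id3 and 0.11 for Star, and adding 1 before log2 gave 0.060 for Gdf9. The 3 pools per time, the dim probe sets and the use of different pools at each time limit what these arrays can show. The median SE of a change was 0.285 with all 6 arrays and 0.221 without 12 h replicate 3.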

Other observations

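Some follicle regulators with no test passed deserve their values. Nppc, the natriuretic peptide by which granulosa cells hold the oocyte in meiotic arrest, had signals of 281, 135 and 214 at 24 h and 84.3, 105 and 91.4 at 12 h, which do not overlap (0.99, SE 0.30, limma adjusted p = 0.101). Vegfa, the vascular growth factor gene, had 568, 519 and 447 at 24 h against 195, 453 and 201 at 12 h (0.92, SE 0.32, adjusted p = 0.13). Kitl, the granulosa ligand of the oocyte receptor KIT, had overlapping groups with 950, 881 and 665 against 769, 470 and 806 (0.30, SE 0.25, adjusted p = 0.468). Fst, the activin-binding protein follistatin, had 563, 415 and 370 against 202, 312 and 261 (0.76, SE 0.24, adjusted p = 0.108).

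Akr1c18 encodes an enzyme that inactivates progesterone. Under AMH 200 ng/mL it had 10.7, 29.4 and 9.89 at 24 h and 74.9, 64.6 and 40.6 at 12 h (-1.24, SE 0.33, adjusted p = 0.075, and -1.44 with adjusted p = 0.017 without 12 h replicate 3), and under vehicle its change was 0.65 (SE 0.24). The difference was -1.89 (SE 0.43) with a limma adjusted p of 0.749, and it did not pass. The matrix-associated gene Ccn2, a target of YAP, had 46.4, 74.0 and 58.2 at 24 h and 206, 124 and 351 at 12 h (-1.59, SE 0.38, adjusted p = 0.057, and -1.24 with adjusted p = 0.0207 without that array).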
